A study of Mus musculus with 6 samples.

Results

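The 4 Hox clusters, HoxA, HoxB, HoxC and HoxD, were examined as 48 tiled regions of a mouse DNA methylation array, out of 21987 regions on the whole array. Members were chosen by position only: every probe of the array design that is not a control and whose start on mouse genome build mm9 lies in a fixed window around 1 of the 4 clusters. The windows held 401 probes, of which 3 had a spot flag on at least 1 array and were left out, and the other 398 all fell into regions. A region is a run of at least 3 probes with starts at most 1000 bp apart. HoxA gave 13 regions and 124 probes, HoxB 13 regions and 99 probes, HoxC 10 regions and 78 probes, and HoxD 12 regions and 97 probes.

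DNA came from mouse offspring aged 32 weeks, labelled as liver, with 3 arrays from offspring of dams on a chromium-restricted diet and 3 arrays from offspring of dams on a control diet. Strain, sex, litter and whether animals were pooled are not given in the sources used here, so p-values cover only the spread among these arrays, which may be technical. The tissue label and the titles say liver, whereas the extraction label names fat, and the tissue was not checked against marker genes here because the probes could not be tied to genes on the same build. Chromium-restricted and control arrays with the same number were read in the same scan, but diet and place on the slide cannot be told apart, since position 2 always held a chromium-restricted sample and position 4 always a control. The assay was methylated DNA immunoprecipitation on a tiling microarray (MeDIP-chip). An antibody pulls down fragments that carry methylated cytosine, the pulled-down DNA is labelled red and the untreated input DNA green, and both are hybridised to the same array. All levels below are log2 ratios of immunoprecipitated over input signal, centred on the median of all probes of the array. A level of 0 is therefore the middle of the array and does not mean unmethylated, and a lower level is less immunoprecipitated DNA relative to input.

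Hox genes encode homeodomain transcription factors that set the identity of segments along the body axis of the embryo. In mammals they lie in 4 clusters on separate chromosomes, and within each cluster their order along the DNA follows the order in which they are used from head to tail. The clusters are rich in CpG islands, stretches dense in the CG dinucleotide at which mammalian DNA is methylated, and in many tissues where the genes are silent they carry histone marks of the Polycomb complexes and little DNA methylation. How much MeDIP signal a stretch gives depends both on the share of its CG sites that is methylated and on how many CG sites it has.

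CG density differs widely even among Hox promoters. The windows below are the 250 bases before the annotated start of 5 Hox genes, taken from RefSeq on build GRCm38.p6 and written 5′ to 3′ on the strand of the gene. They show, for each cluster, the listed promoter with the most CG, and for HoxA also the one with the fewest. Capitals mark every CG, which reads the same on both strands. The 5 promoters are Hoxa13 (chr6:52260881-52261130, minus strand), Hoxa9 (chr6:52227371-52227620, minus strand), Hoxb4 (chr11:96318017-96318266, plus strand), Hoxc4 (chr15:103034145-103034394, plus strand) and Hoxd13 (chr2:74667975-74668224, plus strand). These positions are on a later build than the array's and cannot be set against the region positions below, so no region is assigned to a gene.
Hoxa13: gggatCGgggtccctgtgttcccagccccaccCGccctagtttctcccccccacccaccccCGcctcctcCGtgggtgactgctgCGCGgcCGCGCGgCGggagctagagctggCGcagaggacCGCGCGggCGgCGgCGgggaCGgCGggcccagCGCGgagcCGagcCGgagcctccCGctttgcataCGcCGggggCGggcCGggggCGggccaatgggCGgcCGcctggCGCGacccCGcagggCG
Hoxa9: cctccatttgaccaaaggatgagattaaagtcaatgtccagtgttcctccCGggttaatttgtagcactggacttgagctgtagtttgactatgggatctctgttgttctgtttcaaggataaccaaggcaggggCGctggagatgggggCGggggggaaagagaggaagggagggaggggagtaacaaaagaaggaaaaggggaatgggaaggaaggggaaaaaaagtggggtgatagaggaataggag
Hoxb4: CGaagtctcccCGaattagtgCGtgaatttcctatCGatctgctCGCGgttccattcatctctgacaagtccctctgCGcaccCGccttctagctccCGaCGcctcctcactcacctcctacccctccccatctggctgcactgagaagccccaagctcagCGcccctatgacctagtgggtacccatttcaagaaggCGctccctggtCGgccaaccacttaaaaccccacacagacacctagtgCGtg
Hoxc4: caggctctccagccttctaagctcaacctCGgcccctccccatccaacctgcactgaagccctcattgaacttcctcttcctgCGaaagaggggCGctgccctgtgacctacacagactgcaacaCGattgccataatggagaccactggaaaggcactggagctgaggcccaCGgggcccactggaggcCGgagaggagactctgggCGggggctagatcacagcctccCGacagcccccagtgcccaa
Hoxd13: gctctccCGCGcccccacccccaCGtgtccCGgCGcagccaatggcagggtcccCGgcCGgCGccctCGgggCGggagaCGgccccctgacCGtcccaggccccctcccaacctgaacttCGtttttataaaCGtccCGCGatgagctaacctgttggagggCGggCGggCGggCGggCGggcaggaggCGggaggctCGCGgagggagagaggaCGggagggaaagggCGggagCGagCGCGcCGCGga

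The promoter of Hoxa13, the gene at the 5′ end of HoxA that acts in the limb and the hind end of the embryo, held 35 CG in 250 bases. Hoxd13, its counterpart in HoxD, held 31. The promoter of Hoxa9, which acts in blood stem cells, held 3 CG, that of Hoxb4, also active in blood stem cells, 14, and that of Hoxc4 8. The sequence table gave 24 windows for 22 of the 39 Hox genes, from 9 of 11 genes in HoxA, 3 of 10 in HoxB, 1 of 9 in HoxC and 9 of 9 in HoxD. Their median was 12.5 CG, against 6 CG over 32851 windows of all genes, and 19 of 24 (79.2%) held more than 6, against 46.3% of all windows. At least 1 CG was present in all 24 Hox windows and in 92.1% of all windows. The 24 windows ranged from 2 to 35 CG, so CG-poor and CG-dense promoters occur side by side within HoxA and HoxD.

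**Figure D1:**
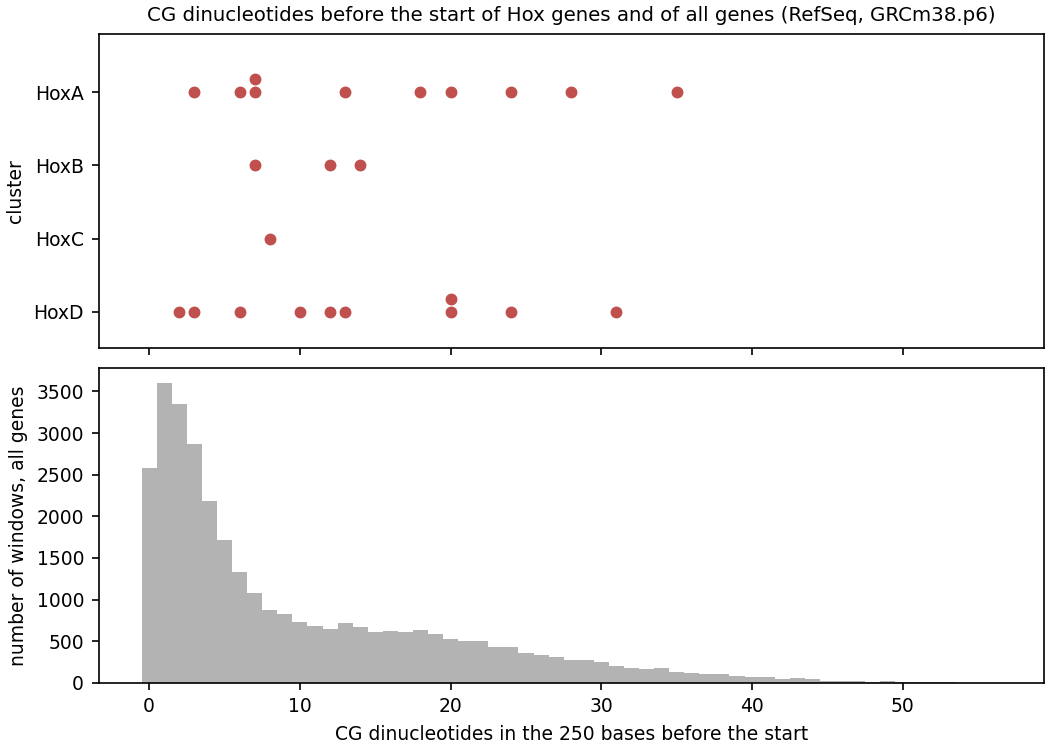
Number of CG dinucleotides in the 250 bases before the start, for the Hox genes listed by cluster (upper panel, 1 point per window) and for windows of all genes (lower panel, bars give the number of windows). The Hox windows reach from 2 to 35 CG with a median of 12.5, against a median of 6 over all genes.

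The probes of the clusters spanned chr6:52107817-52213092 for HoxA (105.276 kb), chr11:96054405-96227492 for HoxB (173.088 kb), chr15:102750289-102865240 for HoxC (114.952 kb) and chr2:74505167-74602216 for HoxD (97.05 kb), all on mm9. Regions are numbered within a cluster by rising coordinate. In the RefSeq table, gene order by rising coordinate ran from Hoxb13 to Hoxb1 in HoxB, from Hoxc13 to Hoxc4 in HoxC and from Hoxd13 to Hoxd1 in HoxD. A Hox region held 6 to 17 probes, with a median of 8 probes over 1681.5 bp, against 8 probes over 1645 bp for all regions. A probe is called bright below where the scanner software marked it well above background, in red and in green, on each of the 6 arrays. This held for 77.6% of Hox probes, against 67.4% on the rest of the array. HoxA had the highest share (83.1%), and HoxB, HoxC and HoxD had 76.8%, 74.4% and 74.2%. The median input signal of an array was 53.1, 83.9 and 46.1 (scanner units) for chromium-restricted arrays 1, 2 and 3, against 98.4, 38.1 and 60.5 on control arrays 1, 2 and 3, so brightness varied within both diets. The number of arrays limits the precision of every value below.

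HoxB, HoxC and HoxD each lay below the rest of the array with the main processing, whereas the difference of HoxA did not pass the test there. The mean level of HoxB was -0.346, -0.435 and -0.392 on chromium-restricted arrays 1, 2 and 3, against -0.396, -0.397 and -0.365 on control arrays 1, 2 and 3. HoxC was at -0.387, -0.407 and -0.351 on chromium-restricted arrays, against -0.408, -0.387 and -0.397 on control arrays. HoxD was at -0.381, -0.330 and -0.450 on chromium-restricted arrays, against -0.340, -0.439 and -0.370 on control arrays. These 3 clusters overlapped one another on the arrays of both diets. HoxA was higher, at -0.148, -0.140 and -0.156 on chromium-restricted arrays, against -0.171, -0.157 and -0.113 on control arrays. The rest of the array averaged -0.152, -0.198 and -0.135 on chromium-restricted arrays, against -0.211, -0.127 and -0.155 on control arrays, a range that overlapped that of HoxA.

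**Figure D2:**
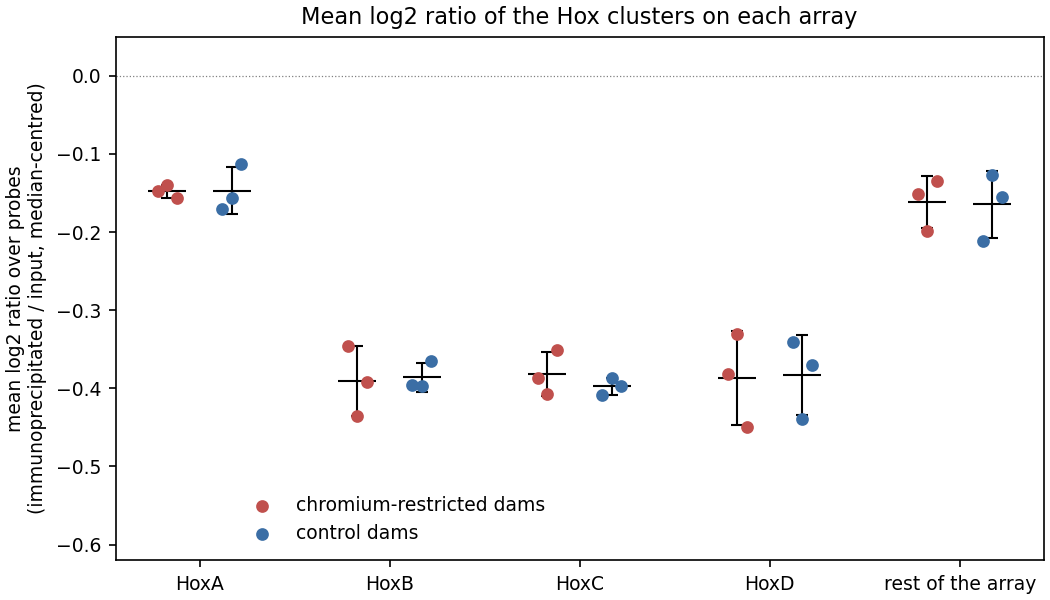
Mean log2 ratio over the probes of each Hox cluster and over the rest of the array (y axis, immunoprecipitated over input, centred on the median of all probes), with 1 point per array and chromium-restricted dams left of control dams. HoxA lies near the rest of the array, HoxB, HoxC and HoxD lie between -0.450 and -0.330, and the points of the diets overlap in every cluster.

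Within arrays, HoxB minus the rest of the array was -0.225 ± 0.035, HoxC -0.226 ± 0.023 and HoxD -0.222 ± 0.082 (SD, n = 6 arrays). All 6 arrays had the same sign. A two-sided exact sign-flip permutation test gave p = 0.03125 for each, the smallest that 6 arrays allow. The Benjamini-Hochberg adjusted p was 0.0391 over the 5 tests of clusters and all Hox probes together. Every array carries the same probes, so this sign-flip test, here and below, covers the spread between arrays only. It cannot tell whether another set of as many probes would differ as much. Among bright probes HoxB, HoxC and HoxD stood at -0.17, -0.061 and -0.35 relative to the rest (exact adjusted p = 0.03125 for each). HoxA minus the rest was 0.015 ± 0.037, higher on 4 of 6 arrays (p = 0.344 in the same exact test). HoxA's sign depended on the processing. It was below the rest of the array after loess within arrays (-0.10) and among bright probes (-0.065). It was above the rest as the median over probes (0.10) and after the normexp background correction (0.039). Among bright probes the difference of HoxA passed the exact test (adjusted p = 0.03125), with HoxA below the rest. It also passed in 2 other settings, with HoxA above the rest. Against the other probes of its own chromosome, HoxB stood at -0.313, HoxC at -0.278 and HoxD at -0.232 on average (exact sign-flip p = 0.03125, adjusted p = 0.0417 over 4 clusters), and HoxA stood at 0.016 (p = 0.406), again below after loess (-0.14) and among bright probes (-0.098). The differences of HoxB, HoxC and HoxD from their chromosomes were smaller after normexp (-0.12, -0.10 and -0.14) and in the authors' series values (-0.16, -0.12 and -0.089). Among bright probes that of HoxC was -0.060. All of these passed the exact test (adjusted p = 0.03125). HoxA passed it in the same settings, above its chromosome after normexp and in the authors' series values, and below it among bright probes. All Hox probes together lay at -0.150 ± 0.040 relative to the rest, lower on 6 of 6 arrays (exact p = 0.03125). The size of this shift depended on the processing: it was -0.24 after loess within arrays, -0.047 after normexp and 3.2e-04 in the authors' series values, where HoxB, HoxC and HoxD stood at -0.024, -0.0067 and -0.13 relative to the rest and none passed the exact test (adjusted p = 0.156, 0.625 and 0.0781). After normexp these 3 clusters stood at -0.050, -0.050 and -0.15, lower on 6 of 6 arrays (exact p = 0.03125). The level is not corrected for GC or CG content, and the part of either in these differences was not tested.

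HoxA was higher than each of the other clusters on 6 of 6 arrays. HoxA minus HoxB was 0.241 ± 0.032, HoxA minus HoxC 0.242 ± 0.031 and HoxA minus HoxD 0.238 ± 0.050 (SD, n = 6 arrays). Each had the smallest exact sign-flip p of 0.03125 and an adjusted p of 0.0625 over the 6 pairs, which misses 0.05. In the same exact test all 3 passed after normexp and in the authors' series values, and HoxA minus HoxB and HoxA minus HoxD also passed among bright probes (adjusted p = 0.0375 for each). Among bright probes HoxA minus HoxC was -0.0038, whereas HoxA minus HoxB was 0.10 and HoxA minus HoxD 0.28 there. HoxB minus HoxC was 0.0010 ± 0.033, HoxB minus HoxD -0.0032 ± 0.064 and HoxC minus HoxD -0.0043 ± 0.069 (adjusted p = 0.906 in the exact test for each), with ranges over arrays of -0.041 to 0.041, -0.105 to 0.058 and -0.077 to 0.099. These 3 differences changed sign with the processing. Among bright probes HoxB minus HoxD was 0.18 and HoxC minus HoxD 0.29, which puts HoxD lowest in that setting. HoxD was also lowest in the authors' series values, after normexp, over region means and as the median over probes, but not with the main processing.

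Both channels were brighter over the clusters than over the rest of the array. The median input signal was 1.2 to 1.3 times that of the rest in HoxA, 1.31 to 1.52 times in HoxB, 1.38 to 1.68 times in HoxC and 1.08 to 1.24 times in HoxD over the 6 arrays. The median immunoprecipitated signal was 1.21 to 1.25 times that of the rest in HoxA, 1.13 to 1.29 times in HoxB, 1.49 to 1.63 times in HoxC and 1.07 to 1.18 times in HoxD. Probe medians gave a milder picture than means for HoxB, HoxC and HoxD, and set HoxA further above the rest. The median probe level was 0.065 in HoxA, -0.13 in HoxB, -0.11 in HoxC and -0.17 in HoxD, against -0.0030 on the rest of the array. Very low probes bear on the means more than on the medians: 43 of 398 Hox probes (10.8%) had a level below -2, against 8.59% of the rest, and 14 of the 43 were bright. By cluster the share was 14.1% in HoxB and 14.1% in HoxC. It was 8.87% in HoxA, near that of the rest, and 7.22% in HoxD, below it. At the other end, 43 Hox probes (10.8%) had a level above 1, against 16.8% of the rest. Of the 48 Hox regions, 26 held at least 1 probe below -2 and 11 held more than 1. The same counts were not made over all regions, so these cannot be read as particular to the Hox clusters. These thresholds were chosen after the values were seen and carry no test.

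Most Hox regions were below the middle of the array. The level was below 0 in 34 of 48 regions (70.8%), against 59% of all regions. It was below 0 on all 6 arrays in 30 Hox regions (45.9% of all regions were) and above 0 on all 6 arrays in 10 (29.3% of all regions were). The median level was -0.35 in Hox regions and -0.11 over all regions. Of the 48, 19 lay below the lower quartile of all regions (-0.45) and 8 above the upper quartile (0.20). Medians by cluster were -0.22 in HoxA, -0.36 in HoxB, -0.14 in HoxC and -0.48 in HoxD. Hence HoxC, which had a mean as low as HoxB and HoxD, had the highest median region of the 4, and 2 of its 10 regions lay at or below -1.41. The SD over regions within a cluster was 0.48 in HoxA, 0.50 in HoxB, 0.75 in HoxC and 0.34 in HoxD, larger than any difference between cluster means.

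**Figure D3:**
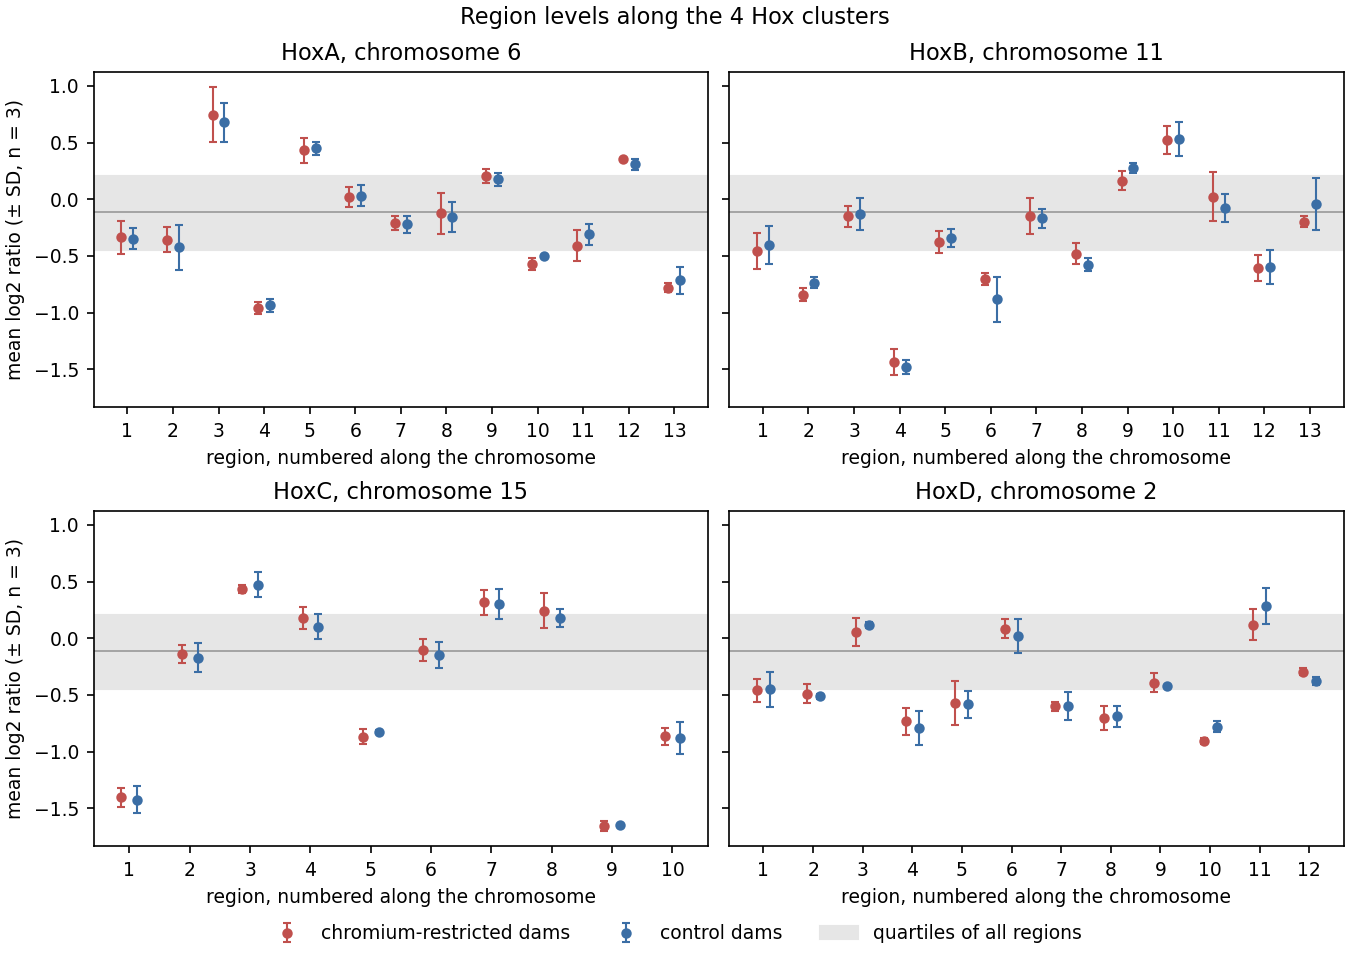
Level of each Hox region (y axis, mean log2 ratio ± SD over 3 arrays) by its number along the chromosome, chromium-restricted dams left of control dams, with the quartiles of all regions of the array as a grey band and their median as a line. High and low regions lie side by side, from 0.71 in HoxA region 3 to -1.65 in HoxC region 9, and the diets overlap in most regions.

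In HoxA, region 3 (chr6:52141208-52142863, 7 probes) had the highest level of all 48. It was at 0.81, 0.94 and 0.47 on chromium-restricted arrays, against 0.80, 0.48 and 0.75 on control arrays, a mean of 0.71 that exceeds 97.3% of all regions. The values within each diet ranged more widely than the diets differed. Region 5 (chr6:52154090-52155782, 9 probes) was also high, at 0.50, 0.49 and 0.31 on chromium-restricted arrays, against 0.42, 0.41 and 0.51 on control arrays. Between them lay the lowest region of the cluster, region 4 (chr6:52149827-52151570, 9 probes), at -0.91, -1.02 and -0.94 on chromium-restricted arrays, against -0.94, -0.99 and -0.87 on control arrays. Neighbouring regions thus stood at opposite ends of the cluster's range. Region 13 (chr6:52210676-52213092, 11 probes), the last by coordinate, was at -0.74, -0.81 and -0.80 on chromium-restricted arrays, against -0.79, -0.57 and -0.77 on control arrays. Over bright probes alone its mean was -0.036 (7 probes), and that of region 4 was -0.27 (6 probes).

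In HoxB, region 4 (chr11:96131358-96133098, 9 probes) was lowest, at -1.31, -1.52 and -1.49 on chromium-restricted arrays, against -1.40, -1.50 and -1.53 on control arrays. Only 2.8% of all regions were lower. Region 6 (chr11:96146773-96148411, 7 probes) followed, at -0.65, -0.71 and -0.76 on chromium-restricted arrays, against -0.76, -1.11 and -0.77 on control arrays. Control array 2, the array with the dimmest input, stood apart there. The highest were the neighbouring regions 9 and 10. Region 10 (chr11:96183335-96184736, 7 probes) was at 0.55, 0.39 and 0.63 on chromium-restricted arrays, against 0.35, 0.61 and 0.62 on control arrays, and region 9 (chr11:96178421-96179920, 6 probes) at 0.25, 0.087 and 0.15 on chromium-restricted arrays, against 0.22, 0.31 and 0.30 on control arrays. Of the 13 HoxB regions these were the only 2 above 0. Over bright probes alone the mean was -0.52 in region 4, -0.24 in region 6, 0.050 in region 9 (3 probes) and 0.80 in region 10. With flagged spots kept, region 9 was at 0.13.

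HoxC held the lowest region and the widest spread. Region 9 (chr15:102843203-102844762, 8 probes) was the lowest of all 48, at -1.61, -1.70 and -1.65 on chromium-restricted arrays, against -1.65, -1.65 and -1.64 on control arrays. Its arrays lay within 0.1 of one another, and 2.27% of all regions were lower. Region 1 (chr15:102750289-102751867, 7 probes), at the end that holds Hoxc13 in the gene order, was at -1.43, -1.47 and -1.31 on chromium-restricted arrays, against -1.42, -1.30 and -1.54 on control arrays. It was low throughout: its highest probe had a level of -0.25, and its mean over bright probes was -1.33, whereas that of region 9 was -0.52. Region 3 (chr15:102777887-102779590, 8 probes) was highest, at 0.41, 0.42 and 0.47 on chromium-restricted arrays, against 0.43, 0.60 and 0.39 on control arrays. Region 7 (chr15:102819701-102821452, 8 probes) was at 0.26, 0.24 and 0.44 on chromium-restricted arrays, against 0.21, 0.46 and 0.24 on control arrays.

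Over all its probes, HoxD had the narrowest range and the lowest median region. Region 11 (chr2:74589489-74591117, 8 probes) was highest, at 0.020, 0.28 and 0.059 on chromium-restricted arrays, against 0.14, 0.46 and 0.24 on control arrays, and no HoxD region reached the upper quartile of all regions. Region 3 (chr2:74516351-74517970, 8 probes) was at 0.085, 0.16 and -0.077 on chromium-restricted arrays, against 0.10, 0.15 and 0.10 on control arrays. Over bright probes alone the mean was 0.82 in region 11 (4 probes) and 0.42 in region 3. In the authors' series values they were at 0.0033 and -0.039. The lowest was region 10 (chr2:74558979-74560399, 7 probes), at -0.93, -0.88 and -0.92 on chromium-restricted arrays, against -0.76, -0.84 and -0.75 on control arrays. Over its 4 bright probes, however, its mean was 0.25. Region 4 (chr2:74519091-74520868, 8 probes) was at -0.67, -0.66 and -0.87 on chromium-restricted arrays, against -0.66, -0.96 and -0.76 on control arrays, and stayed low among bright probes (-0.79).

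Levels also jumped between neighbouring regions and within regions, which is described here with no test. The median absolute step between neighbours was 0.58 over 44 Hox pairs, against 0.43 over 11585 pairs elsewhere whose gap was no wider than the widest Hox gap. A step over 1 occurred in 9 Hox pairs (20.5%), against 12% elsewhere, and the largest, 1.86, was between HoxC regions 8 and 9. Hox pairs lay closer together, with a median gap of 6550.5 bp against 19001 bp. Within regions of 1400 to 1900 bp, the 79 Hox probes 200 to 600 bp past the middle by rising coordinate averaged -0.63, with arrays between -0.65 and -0.60, against -0.15 for probes at that place on the rest of the array. The other 4 stretches of these Hox regions averaged between -0.34 and -0.11 over the 4 clusters, and the same 5 stretches elsewhere between -0.19 and -0.14. By cluster, this stretch stood lowest in HoxC, at -1.14 against -0.41 to 0.26 in the other 4 stretches, and, by less, in HoxD, at -0.65 against -0.53 to -0.17. HoxA and HoxB showed no such dip: the stretch was at -0.25 in HoxA, where the others ranged from -0.29 to 0.32, and at -0.50 in HoxB, where they ranged from -0.51 to -0.19. Each cluster gave only 18 to 22 probes there, the direction is that of the chromosome and not of the genes, and in HoxC the value rests on fewer than 20 probes. Both patterns were noticed after the values were seen.

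The study's comparison was between the diets, and no Hox region or probe passed it. Region means were fitted with limma over all 21987 regions and probe values over all 174278 probes, with Benjamini-Hochberg adjustment over each. At an adjusted p under 0.05, 0 of 48 Hox regions and 0 of 398 Hox probes were called, against 0% of all regions and 0% of all probes. At an unadjusted p under 0.05, 0 Hox regions were called, against 0.891% of all regions, and 4 Hox probes (1.01%), against 1.3% of all probes. Of the 4, 2 were higher in chromium-restricted arrays (0.688% of all probes were) and 2 lower (0.609% of all probes were). The smallest adjusted p in limma was 1 for both regions and probes. Differences, chromium-restricted minus control, lay between -0.16 and 0.18, inside the central 98% of all regions (-0.21 to 0.19), with a median size of 0.040 against 0.048 over all regions. They were above 0 in 25 of 48 Hox regions, against 52.6% of all regions. The 95% interval of a Hox region, which is not adjusted for the number of regions, reached a median of 0.21 to each side. Larger estimates were not called after adjustment either: over the whole array they reached from -0.50 to 0.49 with 0 regions called.

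**Figure D4:**
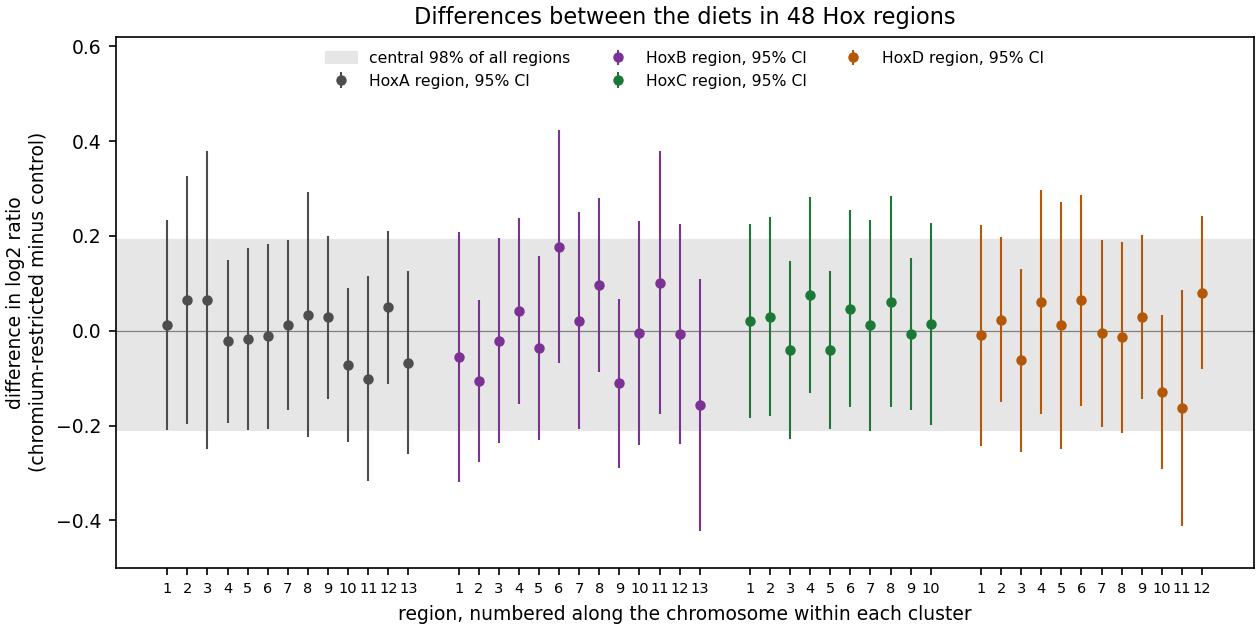
Difference in log2 ratio, chromium-restricted minus control, for each of the 48 Hox regions (points) with its 95% interval from limma (bars), by cluster and number along the chromosome, and the central 98% of all regions as a grey band. Points lie between -0.16 and 0.18 and every interval includes 0.

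Cluster means did not differ between the diets beyond their spread. HoxA averaged -0.148 ± 0.0083 on chromium-restricted arrays, against -0.147 ± 0.030 on control arrays (SD, n = 3 each, here and for the next clusters). HoxB averaged -0.391 ± 0.045 on chromium-restricted arrays, against -0.386 ± 0.019 on control arrays. HoxC averaged -0.381 ± 0.029 on chromium-restricted arrays, against -0.397 ± 0.011 on control arrays, and HoxD -0.387 ± 0.060 on chromium-restricted arrays, against -0.383 ± 0.051 on control arrays. In the same order the differences were -7.9e-04, -0.0047, 0.016 and -0.0039, with two-sided exact permutation p of 1, 1, 0.5 and 0.8 (adjusted p = 1 for each over 4 clusters), where 3 arrays against 3 cannot go below 0.1. Within scans 1, 2 and 3 the difference was 0.023, 0.017 and -0.043 in HoxA, 0.051, -0.037 and -0.027 in HoxB, 0.021, -0.020 and 0.047 in HoxC, and -0.041, 0.11 and -0.080 in HoxD, so no cluster kept 1 sign over the 3 scans. The differences between pairs of clusters did not depend detectably on diet either (exact permutation, adjusted p = 1 for all 6 pairs). The SD over regions within a cluster averaged 0.502 on chromium-restricted and 0.472 on control arrays in HoxA, and 0.50 on chromium-restricted and 0.53 on control arrays in HoxB. It averaged 0.757 on chromium-restricted and 0.749 on control arrays in HoxC, and 0.346 on chromium-restricted and 0.360 on control arrays in HoxD (exact permutation, adjusted p = 0.8 for each).

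In 5 Hox regions (10.4%) the arrays of the diets did not overlap, against 4.43% of all regions. The count is small, and the gap between these shares was not tested. In 2 the chromium-restricted arrays were all higher (2.5% of all regions were) and in 3 all lower (1.93% of all regions were). In HoxB region 6, given above, the mean was -0.70 ± 0.053 on chromium-restricted arrays, against -0.88 ± 0.20 on control arrays (SD, n = 3 each), the largest difference of the 48. It was 0.18 ± 0.11 (SE; adjusted p = 1 in limma), 0.061 without control array 2, and 0.11, 0.40 and 0.016 within scans 1, 2 and 3. HoxD region 12 (chr2:74599737-74602216, 12 probes) was the other higher one, at -0.29, -0.33 and -0.26 on chromium-restricted arrays, against -0.39, -0.40 and -0.33 on control arrays. Its difference was similar in the 3 scans, at 0.093, 0.078 and 0.069, and 9 of its 12 probes were higher. HoxD region 10, one of the 3 lower ones, differed by -0.13 ± 0.071 (SE; adjusted p = 1 in limma), and by -0.17, -0.044 and -0.17 within scans. It had the smallest unadjusted p of the 48 regions, 0.106 in limma. The other two were named only after their values were seen, HoxA region 10 (chr6:52184544-52186103, 8 probes) and HoxB region 2 (chr11:96063677-96065254, 8 probes). HoxA region 10 was at -0.57, -0.63 and -0.52 on chromium-restricted arrays, against -0.49, -0.50 and -0.51 on control arrays. HoxB region 2 was at -0.79, -0.83 and -0.90 on chromium-restricted arrays, against -0.67, -0.76 and -0.77 on control arrays. Over the alternatives tried, the difference ranged from 0.061 to 0.24 in HoxB region 6, from 0.046 to 0.19 in HoxD region 12, from -0.18 to -0.0088 in HoxD region 10, from -0.098 to -0.0080 in HoxA region 10 and from -0.13 to -0.031 in HoxB region 2, with no change of sign.

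The lower end of the differences was HoxD region 11, at -0.16 ± 0.11 (SE; adjusted p = 1 in limma), and -0.075 without control array 2. It was lower by about the same amount in the 3 scans (-0.12, -0.18 and -0.18), yet chromium-restricted array 2 lay above control arrays 1 and 3, so the groups overlapped. The size depended on the processing: the region differed by -0.040 over bright probes alone, -0.062 after normexp and -0.38 with medians over probes. Its first probe, Ch_220697_0084734 (chr2:74589489-74589533), carried the largest Hox probe difference, at -0.92, -0.13 and -0.65 on chromium-restricted arrays, against 0.17, 1.14 and -0.035 on control arrays. The probe differed by -0.99 ± 0.35 (SE; adjusted p = 1 in limma) and was not bright. In the other clusters the lowest differences were HoxB region 13 (chr11:96225775-96227492, 8 probes) at -0.16 ± 0.12, HoxA region 11 (chr6:52190407-52192087, 8 probes) at -0.10 ± 0.094, and HoxC region 5 (chr15:102795928-102797675, 9 probes) at -0.041 ± 0.073 (SE). In HoxB region 13 control array 2 was at 0.21 and the other 5 arrays lay between -0.24 and -0.086, and the difference was -0.032 without control array 2. The highest in HoxA was region 2 (chr6:52114331-52115926, 7 probes) at 0.065 ± 0.11, which turned to -0.043 without control array 2. The highest in HoxC was region 4 (chr15:102783672-102785319, 8 probes) at 0.075 ± 0.090 (SE).

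The remaining probes with the smallest p of their cluster did not pass either. In HoxA, probe Ch_220697_0126900 (chr6:52211497-52211543) of region 13 was at -0.21, -0.28 and -0.52 on chromium-restricted arrays, against 0.058, 0.20 and 0.11 on control arrays, a difference of -0.46 ± 0.15 (SE; adjusted p = 1 in limma). In HoxB, probe Ch_220697_0016632 (chr11:96147446-96147491) of region 6 was at 0.31, 0.073 and 0.33 on chromium-restricted arrays, against -0.069, -0.091 and -0.20 on control arrays, a difference of 0.36 ± 0.15 (SE; adjusted p = 1 in limma). Both were bright, and their arrays did not overlap between the diets. In HoxC, probe Ch_220697_0046054 (chr15:102766697-102766743) of region 2 was at -0.87, -0.81 and -0.87 on chromium-restricted arrays, against -0.65, -0.53 and -0.73 on control arrays (adjusted p = 1 in limma).

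The level of some Hox regions moved with the brightness of the array, and its part in the differences between diets was not tested directly. With median input as a covariate, 0 Hox regions passed the adjusted threshold, as without it. At an unadjusted p under 0.05 in limma, 1 Hox region and 12 Hox probes were then called, against 0 and 4 without the covariate. The arrays with the brightest input were chromium-restricted array 2 and control array 1, and those with the dimmest were chromium-restricted array 3 and control array 2. In 28 of 48 Hox regions (58.3%) both bright-input arrays lay above or below both dim-input ones, against 67.4% of all regions. The bright-input arrays were above in 16 (23.1% of all regions were) and below in 12 (44.3% of all regions were). In HoxA region 3 they stood at 0.94 and 0.80, against 0.47 and 0.48 on the dim-input ones. HoxD region 4 had -0.66 on both bright-input arrays, against -0.87 and -0.96 on the dim-input ones. HoxB region 10 ran the other way, at 0.39 and 0.35, against 0.63 and 0.61. The bright-input and dim-input pairs each hold 1 array of each diet, and this split was made after the values were seen.

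**Figure D5:**
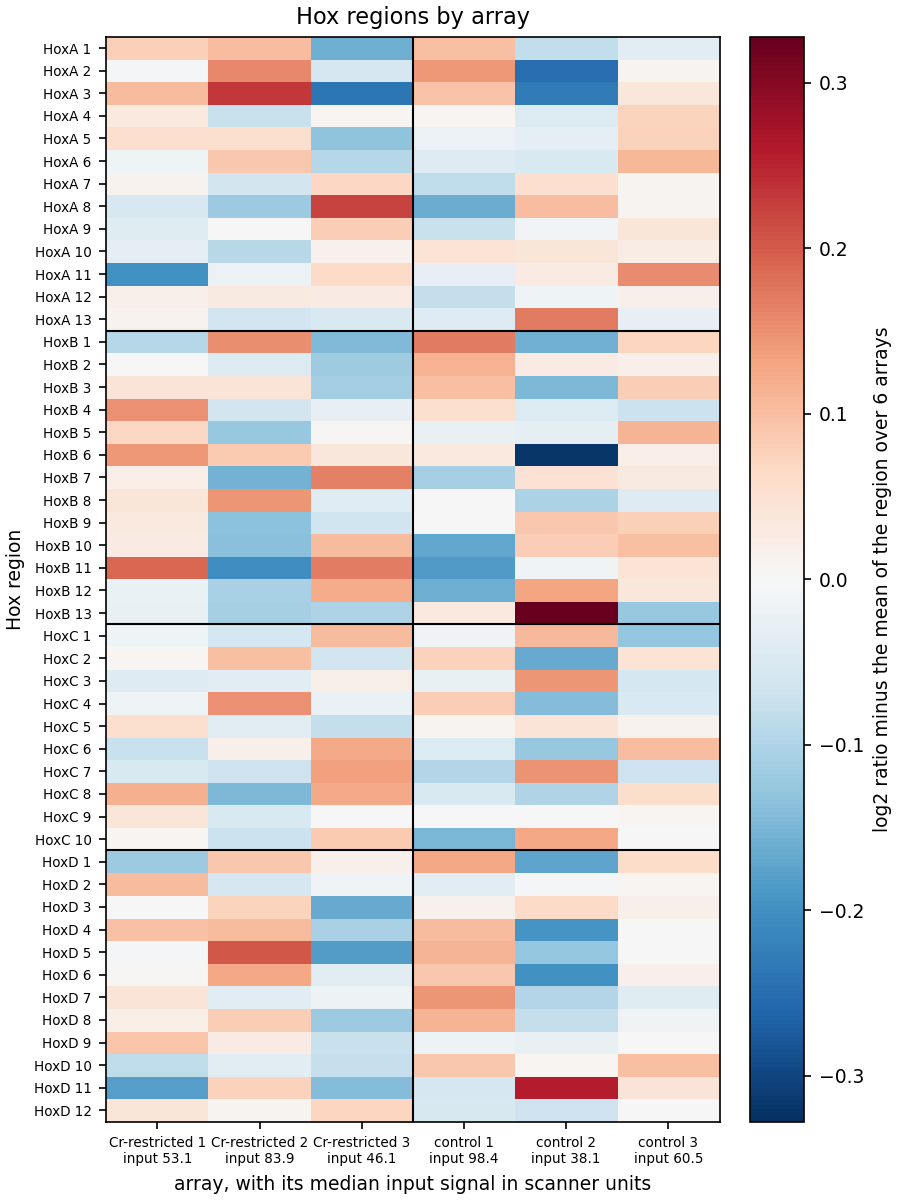
Deviation of each Hox region (rows) on each array (columns, chromium-restricted left of control, with the median input signal) from that region's mean over 6 arrays, in log2 units by colour. HoxA region 3 is low on the 2 arrays with the dimmest input, chromium-restricted array 3 (0.47) and control array 2 (0.48), on both sides of the line that parts the diets.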

How the data were processed

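DNA of 6 offspring samples was hybridised to 2-colour Agilent arrays. Per the file headers, the scanner software was Agilent Feature Extraction 11.0.1.1, and the deposited processed signals are intensity values with a local background subtracted and a linear dye factor applied per channel (5.00 to 11.6 for green, 3.79 to 5.50 for red). The deposited series table holds the authors' log ratios, taken here as log2, an unstated base. Their direction is red over green by comparison with the scanner values, their slope on the main values was 0.526 to 0.586, and their column medians were 0.040, 0.037 and 0.035 on chromium-restricted and 0.037, 0.037 and 0.031 on control arrays. Their centring and normalization are not given in the sources used here.

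Per array, log2 of red over green processed signal was centred on the median over 174638 probes, without loess. The 5827 control spots and 360 probes with a deposited flag (not uniform or population outlier) on any array were left out, and 174278 were kept; 9 with a saturated spot stayed. Fits used limma 3.58.1 (lmFit, eBayes, diet as the only term) in R 4.3.3, and sequences were handled in Python 3.11.15. The fit was tested on simulated data with shifts larger than the difference of any Hox region, so that test does not cover differences of the size seen here. Alternatives were normexp (offset 50, on median signals), loess, the authors' values, bright probes only, flagged probes kept, medians, probes at most 500 bp apart, regions of at least 1 probe, median input as a covariate, no moderation, a replicate block and leaving out each array. Named regions are the 2 highest and 2 lowest of each cluster, its largest and smallest difference, and the probe with the smallest p. The members, lists and rules were chosen with earlier results of these data known. Planned lists of cofactor, regulator, neighbour and tissue marker genes were not analysed here, since probes could not be tied to genes on mm9.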

Additional observations from a re-analysis of the deposited data

How the results depend on the processing

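No Hox region or probe passed the adjusted threshold between the diets under any alternative. At an unadjusted p under 0.05 the count of Hox probes was 4, and 2 with the authors' values, 12 with median input as a covariate, 0 after normexp, 2 with the replicate block, and 2 to 7 when 1 array was left out (7 without control array 1, 2 without control array 3). The count of Hox regions was 0, and 1 with the authors' values, 1 with the covariate, 1 with medians over probes, 1 after normexp, 2 without moderation and 0 with the replicate block. Same-numbered arrays share a scan, and they deviated from their diet's mean with correlations of 0.145, -0.591 and 0.197. These correlations cannot tell whether the numbers also pair the samples in another way. The difference of HoxA region 2 turned to -0.043 without control replicate 2, and that of HoxB region 13 to 0.019 with medians over probes. HoxA against the rest of the array was -0.10 after loess, -0.065 for bright probes, 0.10 for medians and 0.039 after normexp. HoxB, HoxC, HoxD and all Hox probes stood at -0.024, -0.0067, -0.13 and 3.2e-04 with the authors' values. With 1 array left out, where 5 arrays cannot give a p below 0.0625, HoxB ranged from -0.233 to -0.216, HoxC from -0.232 to -0.220, HoxD from -0.241 to -0.204 and all Hox probes from -0.159 to -0.139. Against their own chromosomes the ranges were -0.318 to -0.307, -0.283 to -0.275 and -0.25 to -0.215 for HoxB, HoxC and HoxD with 1 array left out. These 3 also moved to -0.12, -0.10 and -0.14 after normexp, -0.16, -0.12 and -0.089 with the authors' values and -0.21, -0.060 and -0.35 for bright probes. HoxA was 0.16 with the authors' values, -0.14 after loess, 0.12 for medians, 0.047 after normexp and -0.098 for bright probes. HoxA minus HoxB was 0.15 with the authors' values, 0.089 after normexp and 0.10 for bright probes. HoxA minus HoxC was 0.13, 0.089 and -0.0038, and HoxA minus HoxD 0.25, 0.19 and 0.28, in the same order. HoxB minus HoxC was -0.018 with the authors' values, -0.012 with flagged spots kept, -0.040 after loess, -0.041 for medians, -0.10 for bright probes and -0.0070 to 0.0095 with 1 array left out. HoxB minus HoxD was 0.10 with the authors' values, 0.045 over region means, 0.065 for medians, 0.10 after normexp, 0.18 for bright probes and -0.016 to 0.017 with 1 array left out. HoxC minus HoxD was 0.12, 0.0078, 0.11, 0.10, 0.29 and -0.025 to 0.010 in the same order. The causes of these changes were not tested. Of the lowest regions, over bright probes alone HoxC region 9 was at -0.52 and HoxB region 4 at -0.52, while HoxC region 1 stayed at -1.33 and HoxD region 4 at -0.79.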
